A study of Mus musculus with 15 samples.

Results

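Collagens are the main structural proteins of the extracellular matrix, and the genes described here are the collagen alpha-chain genes of the mouse, chosen by their symbols (Col, a type number, a, a chain number). They numbered 44 of the 35373 genes in the deposited count table. Each collagen molecule is a triple helix whose chains may come from a single gene or from several. Fibrillar collagens (types I, II, III, V, XI, XXIV and XXVII) assemble into fibrils, type IV collagens form the network of basement membranes, type VI collagens form beaded microfilaments, and the other collagens sit on fibrils, in membranes or in anchoring structures. In fat, each mature adipocyte is wrapped in a basement membrane, and fibrillar collagens are made chiefly by fibroblasts and adipocyte precursors. Of the members, 11 were fibrillar, 6 type IV, 6 type VI and 21 others.

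Bulk RNA sequencing was done on adipocytes that float after collagenase digestion of dorsal mouse skin. At postnatal day 23 (P23) there were 4 libraries with Wnt activated for 2 days and 3 controls. At P26 there were 5 libraries with Wnt activated for 5 days and 3 controls. Wnt mice carried EngrailedCre/+, Rosa26rtTA/Rosa26rtTA and TetOBcat/+, so that β-catenin, the effector of canonical Wnt signalling, was overexpressed in the Engrailed-Cre lineage on doxycycline. Controls lacked the Cre and carried the same Rosa26rtTA/Rosa26rtTA and TetOBcat/+ alleles. Controls and Wnt mice alike received doxycycline, at 6 g/kg in the food and at 2 mg/mL in the water. The share of floating cells in which β-catenin was overexpressed is not given in the labels. The sexes of the mice are not in the labels either.

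Total counts ran from 11383421 to 38501753 per library. Levels are given as CPM, a gene's count relative to the TMM-scaled library size, and differences as log2 fold changes from edgeR. The 10 adipocyte markers, none of them at 0 in any group, summed to 18333 to 64288 CPM in the 2-day Wnt libraries and to 9147 to 50462 CPM in the 5-day ones. P26 control replicate 1 stood apart from the other controls. Its keratinocyte markers summed to 8015 CPM, against 36.4 to 1506 CPM in the other 14 libraries, and its adipocyte markers to 9654 CPM, against 40121 to 75309 CPM in the other 5 controls. The library labelled 2-day Wnt replicate 1 is listed as a control in the deposited sample sheet, and it held 4831 CPM of hair follicle markers. Its deposited library name also carries the C of the controls, whereas a W marks every other Wnt library. The main fits followed its label, so a control may be among the 2-day Wnt libraries. Transcripts of 4 Y-linked genes summed to at least 44.8 CPM in 8 of the 9 Wnt libraries, all but 2-day replicate 1, and in replicate 1 of each control group. They summed to at most 1.39 CPM in 2-day replicate 1 and in the other 4 controls. Counts and fold changes that moved most when one of these libraries was left out are also given without it.

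The collagens took up a large part of these libraries. Together they made up 3.18%, 2.05%, 4.71% and 2.31% of all counts in the 2-day Wnt libraries, against 1.76%, 2.26% and 2.32% in the P23 controls. They made up 5.34%, 4.25%, 2.84%, 2.98% and 12.9% in the 5-day Wnt libraries, against 1.01%, 4.30% and 2.93% in the P26 controls. The 5-day replicate 5 was the highest and P26 control replicate 1 the lowest of all libraries, and Wnt and control libraries overlapped at both ages. The 95% Wilson intervals of these shares were at most 0.014 percentage points to either side and cover counting error only. Mitochondrially encoded genes took 31.7%, 8.37%, 11.3% and 19.4% of counts in the 2-day Wnt libraries, against 8.90%, 5.30% and 9.36% in the P23 controls. They took 16.6%, 12.3%, 12.2%, 12.1% and 9.20% in the 5-day Wnt libraries, against 3.69%, 7.93% and 4.27% in the P26 controls. Every 5-day Wnt library lay above every P26 control in that share, and its part in the collagen values was not tested. In bulk RNA, a change in the number of cells of a type and a change in RNA per cell cannot be told apart.

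**Figure D1:**
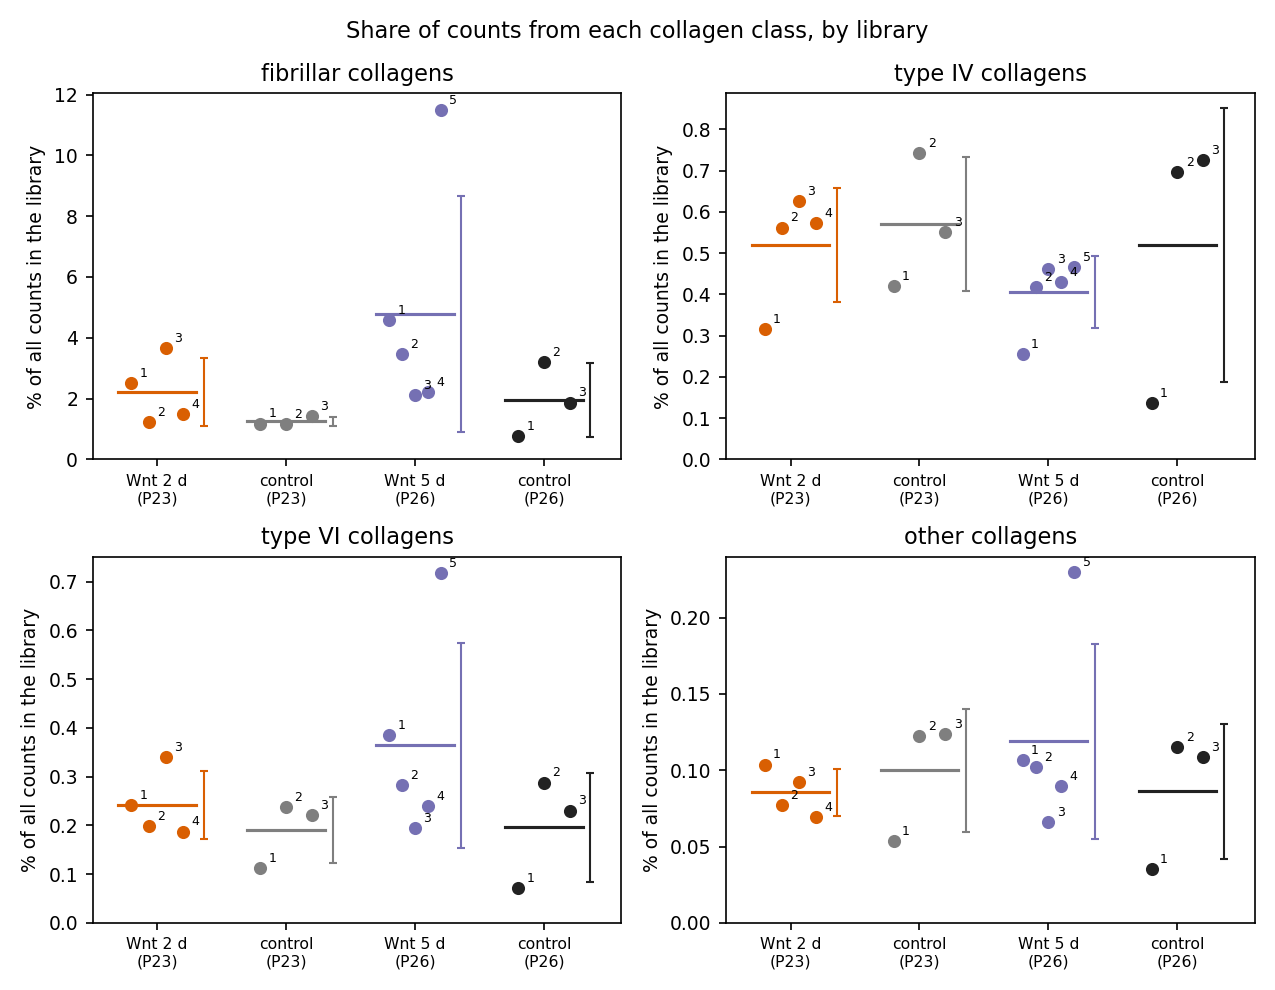
Share of all counts (%, y axis from 0) that came from fibrillar, type IV, type VI and other collagens in each library (points, numbered by replicate), by group, with the group mean (line) and SD (bar). Fibrillar collagens reached 11.5% of counts in 5-day replicate 5, while type IV collagens stayed between 0.137% and 0.743% in all libraries.

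Per kilobase of the longest transcript, the order of the members' levels began with Col3a1, Col1a1 and Col1a2, the chains of collagens III and I. Col3a1 stood at 2832, 2345, 1301, 1392 and 7124 CPM per kb in the 5-day Wnt libraries and at 378, 2563 and 1587 CPM per kb in the P26 controls. Next came Col4a1 and Col4a2, with 201, 323, 358, 357 and 346 CPM per kb of Col4a1 in the 5-day Wnt libraries and 85.0, 591 and 665 CPM per kb in the P26 controls. Then followed Col6a1, Col6a2, Col15a1, Col5a3, Col5a1, Col5a2 and Col6a3, whose ranges over libraries overlapped. At the other end, 9 members had too few counts to be tested: Col2a1, Col24a1, Col6a4, Col9a1, Col9a2, Col10a1, Col19a1, Col22a1 and Col25a1. None of these 9 exceeded 3.04 CPM in any library, and each was at 0 in at least 11 of the 15. Col2a1 and Col9a1 encode cartilage collagens, and Col10a1 a collagen of hypertrophic cartilage. With the union of exons as the length, Col1a1 ranked first and Col3a1 second. Of the 44 members, 18 had counts in every library.

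The 35 members that passed the expression filter did so among 16935 genes tested. No collagen passed an adjusted p of 0.05 in edgeR's quasi-likelihood test at 2 days, at 5 days, in the average of both ages, in the difference between the ages or between P26 and P23 controls. Of all genes tested, 0% passed in each of the 5 comparisons, so the count of 0 is that of the background. At an unadjusted p under 0.05, 1 of 35 collagens passed at 2 days, against 5.17% of all genes, 6 at 5 days, against 7.06%, and 10 in the average of both ages, against 7.85%. In the difference between the ages 1 passed, against 5.72% of all genes, and between P26 and P23 controls 4 passed, against 6.98%. DESeq2 called Col4a6 at 2 days, where 0.88% of all genes passed, and Col27a1 at 5 days, where 1.18% passed. It called Col27a1 and Col4a6 in the average (1.9% of all genes) and Col4a6 in the difference (0.88%). Its log2 fold changes of Col4a6 were -20.0 at 2 days and -9.82 in the average. Among the 2-day Wnt and P23 control libraries, Col4a6 was above 0 only in P23 control replicate 2, so these values are no measure of size. In limma-voom the average of Col4a6 was 1.69. limma-voom with library weights called Col9a3 at 5 days, where 1.33% of all genes passed.

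Although edgeR called no single gene, its fitted differences lay mostly on one side. With 2 days of Wnt activation, 25 of the 35 tested collagens had a log2 fold change above 0 and 9 below, with a median of 0.68, against a median of 0 and 49.4% above 0 over all genes tested. With 5 days, 29 were above 0 and 6 below, with a median of 1.17, against a median of 0.03 and 51.6% over all genes. Collagens share cells and libraries and are not independent, and these counts carry no test. Without 2-day replicate 1, 25 of 35 were above 0 at 2 days, with a median of 0.42. Without 5-day replicate 5, 27 of 35 were above 0 at 5 days, with a median of 0.58. Without P26 control replicate 1, 30 of 38 tested collagens were above 0 at 5 days, with a median of 0.89. Under the grouping of the sample sheet, 21 of 35 were above 0 at 2 days, with a median of 0.16. With a term for Y-linked transcripts, 31 of 35 were above 0 at 2 days and 32 of 35 at 5 days. P26 control replicate 1 was the only P26 control with such transcripts.

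Markers of other cells moved in the same comparisons. Over all genes tested, 49.4% were above 0 at 2 days and 51.6% at 5 days. An unadjusted p under 0.05 was reached by 5.17% and 7.06% of all genes, in that order. The marker counts include 2-day replicate 1, which had the highest stromal marker sum of the P23 libraries (3576 CPM). All 12 stromal markers were above 0 at 2 days (median log2 fold change 1.37), with 8 at an unadjusted p under 0.05, and 11 of 12 at 5 days (median 0.64), with 0 under 0.05. Of 10 endothelial and mural markers 9 were above 0 at each time, with medians of 0.47 and 1.20, and the 7 Schwann cell markers were all above 0 at both times, with medians of 2.24 and 1.74. Of 10 adipocyte markers, 9 were below 0 at 2 days (median -0.43) and all 10 at 5 days (median -0.35). Other lists differed between the times. The 8 hair follicle markers tested were all above 0 at 2 days, with 5 at an unadjusted p under 0.05, and 0 of 8 at 5 days. Single libraries held most of their level. They summed to 4831, 0, 8.41 and 62.8 CPM in the 2-day Wnt libraries and to 2.07, 3.58 and 6.45 CPM in the P23 controls. P26 control replicate 1 held 879 CPM and the other P26 controls 1.58 and 0.718 CPM, with 8.66 to 279 CPM in the 5-day Wnt libraries. The 10 leukocyte markers tested were all above 0 at 2 days, and 3 of 10 at 5 days. Skeletal muscle markers were above 0 in 7 of 7 at 2 days and in 1 of 7 at 5 days. They summed to 1190 CPM in 2-day replicate 1. In the other 2-day Wnt libraries they summed to 215, 240 and 359 CPM, within the 206 to 431 CPM of the P23 controls. At P26 they summed to 1159 CPM in control replicate 2 and to 128 and 373 CPM in the other controls. The 5-day Wnt libraries held 71.2 to 434 CPM. For keratinocyte markers it was 6 of 11 and 0 of 11. The part of these cells in the collagen values was not tested.

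**Figure D2:**
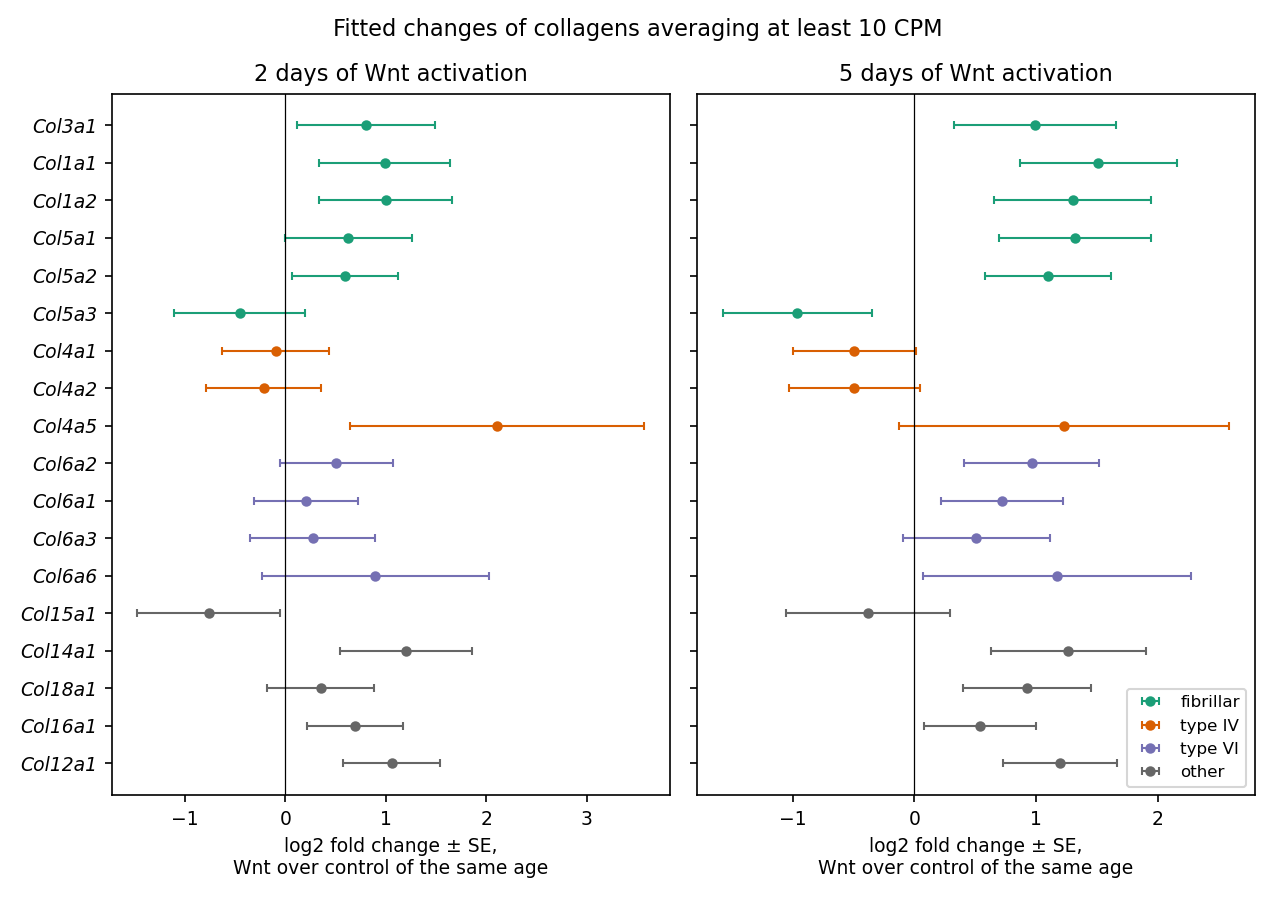
Log2 fold change ± SE (x axis, Wnt over control of the same age) of the 18 tested collagens averaging at least 10 CPM, by class, at 2 days and 5 days. Most fibrillar, type VI and other collagens lie above 0, while Col5a3, Col4a1, Col4a2 and Col15a1 lie below 0 at both times.

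Most fibrillar collagens lay on the higher side. Those below 0 were Col5a3 at both times and the rare Col11a2 at 2 days. Of the 9 tested, 7 had a fold change above 0 at 2 days (median log2 fold change 0.68) and 8 at 5 days (median 1.32). The 5-day median was 0.88 without P26 control replicate 1 and 0.79 without 5-day replicate 5. At 5 days, 4 of the 9 (Col1a1, Col5a1, Col5a2 and Col27a1) were higher with an unadjusted p under 0.05, against 4.02% of all genes. Such counts depended on single libraries. Without 5-day replicate 5, 2 of all 35 tested collagens had an unadjusted p under 0.05, against 1030 of 16694 genes. Without P26 control replicate 1, 7 of 38 did, against 1136 of 17899 genes. The unadjusted edgeR p of Col1a1 was then 0.113 and 0.0975, in that order. Summed fibrillar collagens stood at 44222, 33013, 20653, 21841 and 104653 CPM in the 5-day Wnt libraries and at 5447, 32489 and 21113 CPM in the P26 controls. The group ranges overlapped, since P26 control replicate 2 exceeded 5-day replicates 3 and 4.

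Col1a1 (ENSMUSG00000001506, GRCm38 chromosome 11, 94936224 to 94953042, plus strand) encodes the alpha-1 chain of collagen I, the main fibrillar collagen of dermis. It stood at 8507, 3868, 11518 and 5875 CPM in the 2-day Wnt libraries and at 3501, 3969.8 and 3778 CPM in the P23 controls. It stood at 15407, 10250.5, 7283, 7459 and 36524 CPM in the 5-day Wnt libraries and at 1671, 8860.4 and 5629.9 CPM in the P26 controls. The 3 P23 controls were close together and only 2-day replicate 2 fell within their range, while at 5 days replicates 3 and 4 lay below P26 control replicate 2. In edgeR, Wnt over control was 0.99 ± 0.65 (SE) in log2 at 2 days and 1.51 ± 0.65 at 5 days, with adjusted p of 1 and 0.695. Without 5-day replicate 5 the 5-day value was 0.92, and without P26 control replicate 1 it was 1.08. At 2 days it was 0.91 without replicate 1 and 0.52 under the grouping of the sample sheet.

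Col1a2 encodes the alpha-2 chain, which joins the alpha-1 chain in collagen I. It stood at 5920.3, 2127, 8045 and 3178 CPM in the 2-day Wnt libraries and at 2328, 2480.3 and 2429.8 CPM in the P23 controls. It stood at 10864, 7260.2, 4343, 4596 and 22584 CPM in the 5-day Wnt libraries and at 1342, 6722 and 4024 CPM in the P26 controls. The same libraries were high as for Col1a1, and the groups overlapped at both ages. Its fold change in log2 was 1.00 ± 0.66 for 2 days and 1.30 ± 0.65 for 5 days, with adjusted p of 1 and 0.707. Per kilobase, Col1a1 stood at 1.12 to 1.67 times Col1a2 in all 15 libraries. With the union of exons as the length, the median of that ratio was 2.85, against 1.36 with the longest transcript.

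Col3a1 (ENSMUSG00000026043, GRCm38 chromosome 1, 45311538 to 45349706, plus strand) encodes the only chain of collagen III, which forms fibrils together with collagen I. It stood at 11492, 5307, 15226 and 5679 CPM in the 2-day Wnt libraries and at 5319, 5109.8 and 5776 CPM in the P23 controls. It stood at 15758, 13047, 7241, 7744 and 39636 CPM in the 5-day Wnt libraries and at 2106, 14258 and 8831 CPM in the P26 controls. At 2 days replicates 1 and 3 were high and replicates 2 and 4 lay among the controls, and at 5 days the groups overlapped. Its 2-day log2 fold change of 0.80 ± 0.68 and its 5-day one of 0.99 ± 0.66 had adjusted p of 1 and 0.811. It was 0.40 at 5 days without replicate 5, 0.52 without P26 control replicate 1, and -0.04 in limma-voom, which weights libraries by their fit. At 2 days it was 0.68 without replicate 1 and 0.34 under the grouping of the sample sheet.

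Col5a1 and Col5a2 encode chains of collagen V, which regulates the diameter of collagen I fibrils. Col5a2 stood at 548, 479, 764 and 563 CPM in the 2-day Wnt libraries and at 395, 417 and 360.2 CPM in the P23 controls. All 4 Wnt libraries lay above all 3 controls at that age. It stood at 852, 815, 523, 585 and 2252 CPM in the 5-day Wnt libraries and at 162, 704 and 543 CPM in the P26 controls, which overlapped. Its fold change in log2 was 0.59 ± 0.52 for 2 days and 1.10 ± 0.52 for 5 days, with adjusted p of 1 and 0.707. Col5a1 stood at 695, 488, 1213 and 455 CPM in the 2-day Wnt libraries and at 371, 543 and 470.2 CPM in the P23 controls, with a log2 fold change of 0.63 ± 0.63 and an adjusted p of 1. Replicates 1 and 3 were high, and replicates 2 and 4 lay within the range of the controls. Col5a1 stood at 1088, 1175, 742, 889 and 3221 CPM in the 5-day Wnt libraries and at 101, 923 and 685 CPM in the P26 controls, with a log2 fold change of 1.32 ± 0.63 and an adjusted p of 0.707. Its groups overlapped, since 5-day replicates 3 and 4 lay below P26 control replicate 2.

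Col27a1 (ENSMUSG00000045672, GRCm38 chromosome 4, 63214004 to 63334991, plus strand) encodes a fibrillar collagen best known from cartilage. It stood at 11.9, 5.94, 7.75, 3.53 and 32.7 CPM in the 5-day Wnt libraries and at 0.0906, 1.32 and 1.08 CPM in the P26 controls, so the groups did not overlap. In the 2-day Wnt libraries it stood at 10.4, 8.003, 1.903 and 3.77 CPM, and in the P23 controls at 1.26, 2.57 and 7.45 CPM, which overlapped. In log2 it differed by 3.89 ± 1.17 at 5 days and by 0.68 at 2 days, with adjusted p of 0.613 and 1. DESeq2 gave 3.96 at 5 days with an adjusted p of 0.00358, and limma-voom with library weights gave 2.49 with an adjusted p of 0.384. The difference between the 5-day and 2-day effects was 3.21 ± 1.45, with an adjusted p of 0.868 in edgeR.

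The abundant basement membrane collagens Col4a1 and Col4a2 were below 0 at both times. Col4a1 and Col4a2, whose chains form the collagen IV of nearly all basement membranes, lie head to head on GRCm38 chromosome 8 (Col4a1, ENSMUSG00000031502, 11198423 to 11312826, minus strand; Col4a2, ENSMUSG00000031503, 11312805 to 11449287, plus strand). The annotated first exons overlap on opposite strands by 22 bases, shown because it is the annotated stretch that the pair shares.
Col4a1 and Col4a2 start, chr8:11312805-11312826, plus strand: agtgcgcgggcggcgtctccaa
These bases are 0.295% of the exon bases of Col4a1 and 0.332% of those of Col4a2.

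Col4a1 stood at 1925, 3237, 3618 and 3531 CPM in the 2-day Wnt libraries and at 2571, 4409 and 2899 CPM in the P23 controls. It stood at 1331, 2136, 2370.3, 2362 and 2286 CPM in the 5-day Wnt libraries and at 562, 3908 and 4399.7 CPM in the P26 controls. At 5 days all Wnt libraries lay below P26 control replicates 2 and 3 and above replicate 1. On the log2 scale it differed by -0.10 ± 0.54 at 2 days and by -0.50 ± 0.51 at 5 days, with adjusted p of 1 and 0.955. Without P26 control replicate 1 it was -0.98 at 5 days, with an adjusted p of 0.733.

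Col4a2 gave nearly the same values. It stood at 1521, 2681, 2780.5 and 2757 CPM in the 2-day Wnt libraries and at 1811, 4360.2 and 2312 CPM in the P23 controls. It stood at 1087, 1829.9, 2105, 1859 and 1813 CPM in the 5-day Wnt libraries and at 388, 3161 and 3797 CPM in the P26 controls, again between control replicate 1 and the other two. Fitted log2 fold changes were -0.22 ± 0.57 for 2 days and -0.49 ± 0.54 for 5 days, with adjusted p of 1 and 0.962. Per kilobase, Col4a1 stood at 0.986 to 1.41 times Col4a2 in all 15 libraries, so the pair kept its ratio while its level varied.

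The other 4 type IV genes were low. Col4a5, on GRCm38 chromosome X and paired head to head with Col4a6, stood at 14.5, 5.11, 11.1 and 0 CPM in the 2-day Wnt libraries and at 1.26, 0 and 4.06 CPM in the P23 controls. It stood at 22.3, 13.8, 7.46, 4.78 and 70.5 CPM in the 5-day Wnt libraries and at 18.6, 5.61 and 6.14 CPM in the P26 controls. Col4a4, paired head to head with Col4a3, stood at 12.7, 8.10, 7.42, 3.14 and 43.9 CPM in the 5-day Wnt libraries and at 0, 7.49 and 3.68 CPM in the P26 controls. Both were highest in 5-day replicate 5, and their groups overlapped. At 2 days Col4a4 stood at 15.4, 0.362, 9.70 and 0.525 CPM in the Wnt libraries and at 2.55, 0.905 and 4.45 CPM in the P23 controls. Col4a3 was at 0 in all P23 libraries, Wnt and control, and reached 24.4 CPM in 5-day replicate 5 and at most 1.35 CPM elsewhere. Col4a6 was at 0 in all 4 of the 2-day Wnt libraries and in 2 of the 3 P23 controls, and stood at 0.977 CPM in P23 control replicate 2. At P26 Col4a6 stood at 2.88, 1.98, 0.282, 0 and 9.09 CPM in the Wnt libraries and at 6.12, 0 and 0 CPM in the controls, which overlapped. Of the 6 type IV genes, 2 were above 0 and 3 below at 2 days (median log2 fold change -0.05), and 4 above and 2 below at 5 days (median 0.86). Without P26 control replicate 1, where Col4a6 is at 0 in both remaining controls, 4 were again above and 2 below. The 5-day median was -0.24 without 5-day replicate 5, and the 2-day median was 0.035 without 2-day replicate 1.

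Col5a3 (ENSMUSG00000004098, GRCm38 chromosome 9, 20770050 to 20815067, minus strand) encodes the third, tissue-restricted chain of collagen V, and it lay on the side of Col4a1. It stood at 526, 536, 666 and 476 CPM in the 2-day Wnt libraries and at 324, 1198 and 744 CPM in the P23 controls. It stood at 211, 447, 510.0, 557 and 386 CPM in the 5-day Wnt libraries and at 62.4, 1018 and 1395 CPM in the P26 controls. The Wnt libraries lay between control replicate 1 and the other controls at both ages. In edgeR, Wnt over control was -0.46 ± 0.65 (SE) in log2 at 2 days and -0.97 ± 0.61 at 5 days, with adjusted p of 1 and 0.783. Without P26 control replicate 1 the 5-day value was -1.50, with an adjusted p of 0.45. Within libraries, Col5a3 per kilobase was 0.267, 0.522, 0.944, 0.861 and 0.165 times Col5a1 at 5 days of Wnt activation, against 0.850, 1.52 and 2.80 times in the P26 controls. That ratio was lowest in 5-day replicates 1, 2 and 5, and the groups overlapped through P26 control replicate 1.

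Col15a1 (ENSMUSG00000028339, GRCm38 chromosome 4, 47208161 to 47313167, plus strand) encodes a proteoglycan collagen of the basement membrane zone. It stood at 487, 549.6, 340.9 and 500.0 CPM in the 2-day Wnt libraries and at 349, 1148 and 890.4 CPM in the P23 controls. It stood at 303, 348, 292, 429 and 604 CPM in the 5-day Wnt libraries and at 18.6, 656 and 871 CPM in the P26 controls. At both ages the Wnt libraries lay below control replicates 2 and 3, and at 5 days control replicate 1 was the lowest library of all. Its 2-day log2 fold change of -0.76 ± 0.71 and its 5-day one of -0.38 ± 0.68 had adjusted p of 1 and 0.999, and -0.94 at 5 days without P26 control replicate 1, with an adjusted p of 0.771.

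**Figure D3:**
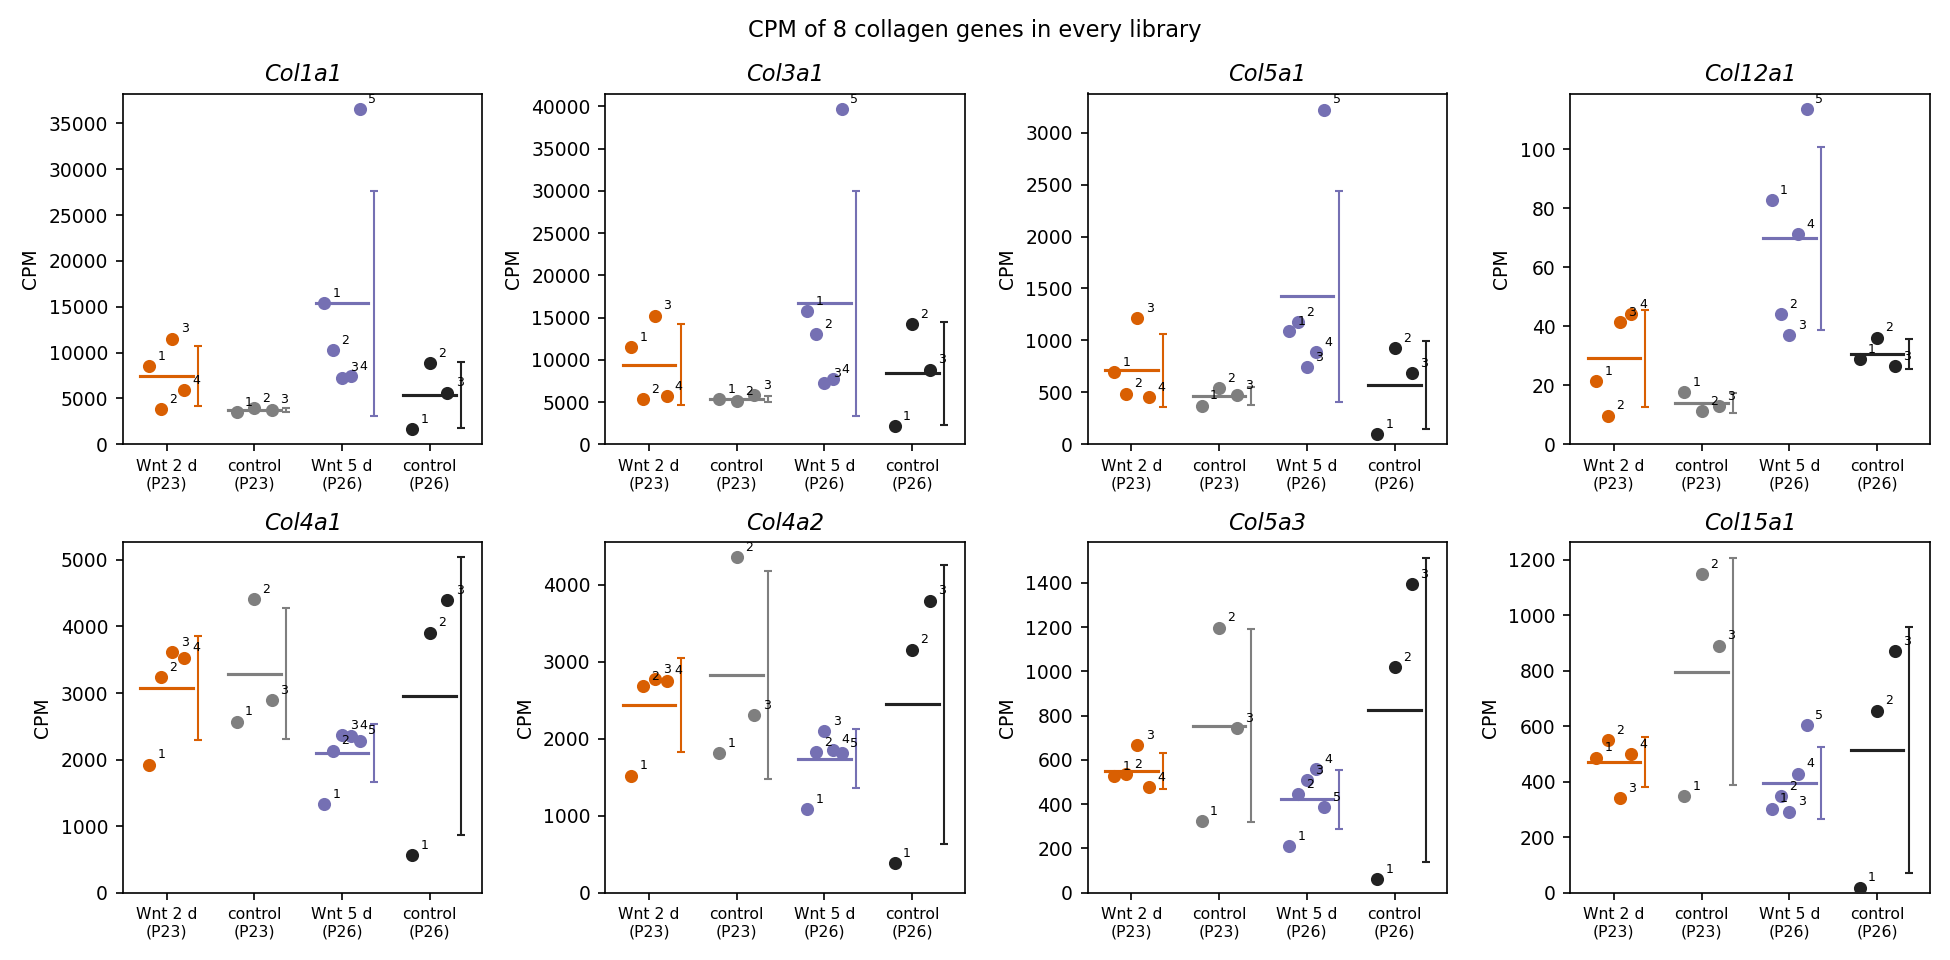
CPM (y axis from 0) of 8 collagen genes in every library (points, numbered by replicate), with group means (lines) and SDs (bars). In the lower row, Col4a1, Col4a2, Col5a3 and Col15a1 are lowest in P26 control replicate 1, and all 5-day Wnt libraries lie below P26 control replicates 2 and 3.

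The non-overlap of groups depended on that library. With all libraries, 3 collagens were higher in every 5-day Wnt library than in every P26 control (Col27a1, Col12a1 and Col8a1), against 3.39% of all genes tested, and 1 was lower (Col9a3), against 2.25%. At 2 days 3 were higher (Col5a2, Col26a1 and Col13a1), against 2.24%, and 0 were lower, against 2.91%. Without P26 control replicate 1, a comparison added after the values were seen, 4 were higher, against 7.13% of all genes, and 5 were lower, against 8.59%: Col9a3, Col4a1, Col4a2, Col5a3 and Col15a1. In that comparison Col5a3 ran from 211 to 557 CPM in the 5-day Wnt libraries and from 1018 to 1395 CPM in the P26 controls. The lower count of 5 among the 35 tested collagens is set against a background that also grew when the library was left out.

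The 4 genes on the lower side, and some collagens on the higher side, also moved with Y-linked transcripts. In the 4 controls with Y-linked transcripts at most 1.39 CPM, Col5a3 stood at 1198, 744, 1018 and 1395 CPM, and in both controls with them it stood at 324 and 62.4 CPM. Col15a1 stood at 1148, 890.4, 656 and 871 CPM in the first 4 and at 349 and 18.6 CPM in the other two. Col4a1 stood at 4409, 2899, 3908 and 4399.7 CPM in the first 4 and at 2571 and 562 CPM in the other two. Per kilobase, Col6a1 stood at 278, 199, 254 and 236 CPM in the first 4 and at 112 and 62.0 CPM in the other controls. On that scale Col1a1 stood at 669, 637, 1494 and 949 in the first 4 and at 590 and 282 in the others. Col3a1 and Col5a2 did not split in this way. Among Wnt libraries, only 2-day replicate 1 lacked Y-linked transcripts. It did not resemble the first 4 controls, with 526 CPM of Col5a3, 487 CPM of Col15a1 and 1925 CPM of Col4a1. All 5-day Wnt libraries held Y-linked transcripts, so at 5 days the Wnt genotype and the sex of the mice cannot be told apart except through P26 control replicate 1. With a term for Y-linked transcripts, the 5-day log2 fold changes of Col4a1, Col4a2, Col5a3 and Col15a1 were 0.17, 0.41, 0.72 and 1.52, and those at 2 days were 0.31, 0.38, 0.62 and 0.38. Col1a1, Col3a1, Col6a3 and Col27a1 stood at 2.16, 1.71, 1.78 and 5.80 at 5 days with that term, each higher than without it. At P26 the only control with Y-linked transcripts was replicate 1, so these larger values lean on that library. With that library left out and no such term, the 4 genes stood at 1.08, 0.52, -0.01 and 3.35.

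Upstream sequences are shown for 2 fibrillar genes with higher and 2 genes with lower mean levels at 5 days, so that the starts of genes with opposite directions can be compared. They are the 250 bases before the RefSeq start (GRCm38.p6), free of annotated exons, 5′ to 3′ on the gene's strand. Capitals mark matches, on either strand, to the motifs searched. These were the CCAAT box (letters CCAAT), the TATA box (letters TATAAA), the GC box (letters GGGCGG) and the TCF/LEF core (letters CTTTGAT) with its variant (letters CTTTGAA).
Col3a1, chr1:45311288-45311537, plus strand: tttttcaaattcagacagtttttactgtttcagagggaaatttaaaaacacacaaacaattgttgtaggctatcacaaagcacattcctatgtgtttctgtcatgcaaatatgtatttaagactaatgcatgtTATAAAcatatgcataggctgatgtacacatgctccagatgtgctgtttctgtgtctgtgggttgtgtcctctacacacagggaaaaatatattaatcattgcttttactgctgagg
Col5a1, chr2:27886175-27886424, plus strand: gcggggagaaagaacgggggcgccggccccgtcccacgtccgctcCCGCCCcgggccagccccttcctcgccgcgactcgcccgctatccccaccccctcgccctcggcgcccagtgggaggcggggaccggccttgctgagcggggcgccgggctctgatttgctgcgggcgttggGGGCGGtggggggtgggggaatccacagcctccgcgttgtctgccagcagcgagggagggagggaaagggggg
Col5a3, chr9:20815068-20815317, minus strand: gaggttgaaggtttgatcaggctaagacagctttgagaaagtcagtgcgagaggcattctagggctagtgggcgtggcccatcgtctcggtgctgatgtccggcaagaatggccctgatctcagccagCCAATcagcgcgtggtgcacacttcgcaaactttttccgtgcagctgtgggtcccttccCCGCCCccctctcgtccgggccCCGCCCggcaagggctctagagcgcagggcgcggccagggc
Col15a1, chr4:47207762-47208011, plus strand: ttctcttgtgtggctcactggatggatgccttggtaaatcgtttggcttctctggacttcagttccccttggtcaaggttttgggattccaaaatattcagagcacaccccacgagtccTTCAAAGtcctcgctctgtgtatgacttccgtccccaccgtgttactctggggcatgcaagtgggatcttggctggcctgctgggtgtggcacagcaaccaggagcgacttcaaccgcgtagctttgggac
No printed match overlapped another. Col3a1 held a TATA box match, Col5a1 a GC box match on each strand, Col5a3 a CCAAT box match and a pair of GC box matches on the opposite strand, and Col15a1 a match to the TCF/LEF variant on the opposite strand. RefSeq entries were found for 35 of the 44 collagens, with 38 starts in all. The GC box occurred in 57.9% of these 38 stretches, against 32.7% of all 32851 promoters in the table, the CCAAT box in 34.2%, against 33.8%, and the TATA box in 13.2%, against 12.4%. The TCF/LEF core or its variant occurred in 13.2%, against 7.48% of all promoters, and the collagens with a match were Col13a1, Col15a1, Col6a2, Col9a1 and Col9a2.

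Type VI collagens, the beaded filaments that anchor cells to the matrix and surround adipocytes, lay on the higher side in all tested members at both times (5 of 5, with median log2 fold changes of 0.51 at 2 days and 0.97 at 5 days). Without P26 control replicate 1, 4 of 5 were above 0 at 5 days, with a median of 0.50, and without 5-day replicate 5 the median was 0.41. Col6a1 stood at 1354, 1073, 721, 832 and 2238 CPM in the 5-day Wnt libraries and at 254, 1042 and 966 CPM in the P26 controls. Col6a2 stood at 1838, 981, 716, 917 and 2422 CPM in the 5-day Wnt libraries and at 176, 912 and 1025 CPM in the P26 controls. In both genes 5-day replicates 1 and 5 were the highest, and replicate 3 lay below P26 control replicates 2 and 3. The 5-day log2 fold changes were 0.72 ± 0.50 for Col6a1 and 0.97 ± 0.55 for Col6a2, with adjusted p of 0.837 and 0.73, and 0.31 and 0.50 without P26 control replicate 1. At 2 days Col6a1 stood at 808, 884, 1324 and 704 CPM in the Wnt libraries and at 459, 1141 and 818 CPM in the P23 controls. Col6a2 then stood at 1137, 864, 1479 and 815 CPM in the Wnt libraries and at 418, 1064 and 783 CPM in the P23 controls. Wnt and control libraries overlapped in both, with log2 fold changes of 0.21 ± 0.51 and 0.51 ± 0.57 and adjusted p of 1.

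Col6a3 encodes the longest chain of collagen VI, the source of the fragment endotrophin. It stood at 665, 323, 642 and 522 CPM in the 2-day Wnt libraries and at 279, 580.0 and 478 CPM in the P23 controls, with a log2 fold change of 0.27 ± 0.62 and an adjusted p of 1. It stood at 484, 599, 431, 584 and 1673 CPM in the 5-day Wnt libraries and at 78.4, 923 and 589 CPM in the P26 controls. The highest and lowest libraries of the age decided its value, since the log2 fold change of 0.51 ± 0.60 (adjusted p 0.974) was -0.01 without P26 control replicate 1. Of the low members, Col6a6 stood at 33.7, 38.6, 21.4, 21.4 and 137 CPM in the 5-day Wnt libraries and at 0, 43.3 and 23.9 CPM in the P26 controls. Col6a5 stood at 0, 6.89, 3.71, 4.21 and 65.5 CPM in the 5-day Wnt libraries and at 0, 2.47 and 5.92 CPM in the P26 controls. At 2 days Col6a5 stood at 2.87, 3.44, 9.59 and 0 CPM in the Wnt libraries and at 0.952, 0 and 2.48 CPM in the P23 controls. Both were far above the rest of their group in 5-day replicate 5.

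Among the other collagens, Col12a1 (ENSMUSG00000032332, GRCm38 chromosome 9, 79598991 to 79718831, minus strand) had the smallest p in the average of both ages. It encodes a fibril-associated collagen (FACIT) that coats collagen I fibrils under tension. It stood at 21.4, 9.68, 41.3 and 44.1 CPM in the 2-day Wnt libraries and at 17.7, 11.3 and 12.96 CPM in the P23 controls. It stood at 82.8, 44.0, 37.0, 71.3 and 114 CPM in the 5-day Wnt libraries and at 28.9, 36.2 and 26.4 CPM in the P26 controls. At 5 days every Wnt library lay above every control, by a narrow margin for replicate 3, and at 2 days replicate 2 was below all controls. In log2, Wnt over control was 1.06 ± 0.48 at 2 days, 1.19 ± 0.47 at 5 days and 1.13 ± 0.34 in the average, with adjusted p of 0.919, 0.695 and 0.458.

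Col14a1, a FACIT of dermis and tendon, stood at 299.6, 80.7, 253 and 55.6 CPM in the 2-day Wnt libraries and at 88.9, 60.3 and 75.1 CPM in the P23 controls. It stood at 296, 341.6, 147, 193 and 761 CPM in the 5-day Wnt libraries and at 53.3, 267 and 114 CPM in the P26 controls. Its 2-day replicates 1 and 3 were high, as for Col3a1, and the groups overlapped at both ages. On the log2 scale it differed by 1.20 ± 0.66 at 2 days and by 1.26 ± 0.64 at 5 days, with adjusted p of 0.921 and 0.707. At 2 days it was -0.01 under the grouping of the sample sheet, which puts replicate 1 among the controls. Col16a1, another FACIT, stood at 105, 82.4, 53.2, 62.4 and 234 CPM in the 5-day Wnt libraries and at 35.8, 99.7 and 86.4 CPM in the P26 controls, which overlapped.

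Col18a1, the precursor of endostatin and the relative of Col15a1, stood at 183, 122, 79.9, 89.97 and 290.2 CPM in the 5-day Wnt libraries and at 46.7, 81.7 and 114 CPM in the P26 controls. The groups overlapped, and the log2 fold change was 0.92 ± 0.53 with an adjusted p of 0.727. Col15a1 per kilobase was 1.79, 3.07, 3.96, 5.16 and 2.25 times Col18a1 in the 5-day Wnt libraries, against 0.431, 8.68 and 8.28 times in the P26 controls. At 2 days Col18a1 stood at 213, 116, 205 and 69.4 CPM in the Wnt libraries and at 42.8, 170.0 and 142 CPM in the P23 controls, which overlapped. In the ratio of Col15a1 to Col18a1, P26 control replicate 1 alone of its group lay below the Wnt libraries.

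Col17a1, the hemidesmosomal collagen of basal keratinocytes, stood at 19.9, 0.856, 1.55, 6.95 and 13.9 CPM in the 5-day Wnt libraries and at 36.8, 15.2 and 4.71 CPM in the P26 controls. It was highest in P26 control replicate 1, where keratinocyte markers were also highest. In the other P26 libraries Col17a1 did not follow these markers throughout. They summed to 1227 CPM in 5-day replicate 4 (6.95 CPM of Col17a1) and to 138 CPM in replicate 5 (13.9 CPM). P26 control replicates 2 and 3 held 981 and 1045 CPM of them. The log2 fold change given next is that of Col17a1. Its log2 fold change at 5 days was -1.13 ± 1.02, with an adjusted p of 0.932, and all 11 keratinocyte markers tested were below 0 in that comparison (median -2.97). At 2 days Col17a1 stood at 14.3, 1.54, 1.18 and 2.72 CPM in the Wnt libraries and at 8.67, 3.87 and 1.45 CPM in the P23 controls, and replicate 1, the highest, also had the most keratinocyte markers of its group (1506 CPM). The part of keratinocyte RNA in the values of Col17a1 was not tested.

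Several rare members were read only in part of the libraries. Col8a2, a short-chain network collagen, stood at 0, 0.675, 0.282, 2.55 and 2.63 CPM in the 5-day Wnt libraries and was at 0 in all 3 P26 controls, so no fold change is given. At 2 days it stood at 2.87, 1.58, 3.46 and 0 CPM in the Wnt libraries and at 0.918, 0.253 and 0 CPM in the P23 controls. Wnt libraries and controls overlapped at both ages. Col8a1 stood at 4.40, 2.79, 8.497, 2.53 and 33.03 CPM in the 5-day Wnt libraries and at 0, 2.41 and 0 CPM in the P26 controls. Col26a1 stood at 2.74, 4.25, 4.19 and 4.63 CPM in the 2-day Wnt libraries and at 0.544, 0 and 0.774 CPM in the P23 controls, with a log2 fold change of 3.15 ± 1.65 and an adjusted p of 0.919. At P26 Col26a1 stood at 22.3, 10.2, 6.95, 4.24 and 1.28 CPM in the Wnt libraries and at 19.03, 1.65 and 0 CPM in the controls, and its groups overlapped. Col9a3, a minor FACIT, was at 0 in all but 1 of the 5-day Wnt libraries, where it stood at 0.230 CPM, and stood at 0.861, 0.924 and 1.75 CPM in the P26 controls. Col11a1, a fibrillar collagen that co-assembles with collagen II in cartilage, stood at 20.99, 12.3, 1.36, 5.62 and 13.3 CPM in the 5-day Wnt libraries and at 2.45, 1.02 and 0.942 CPM in the P26 controls. The groups of Col11a1 overlapped through 5-day replicate 3 alone, and its log2 fold change was 2.86 ± 1.58 with an adjusted p of 0.715. The other tested members under 10 CPM on average (Col7a1, Col11a2, Col13a1, Col20a1, Col23a1 and Col28a1) did not exceed 12.9 CPM in any library.

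Fibrillar and basement membrane collagens can be set against each other within a library, which does not depend on the scaling between libraries. Fibrillar counts were 7.97, 2.16, 5.83 and 2.58 times the type IV counts in the 2-day Wnt libraries, against 2.79, 1.56 and 2.60 times in the P23 controls. They were 18.01, 8.27, 4.60, 5.16 and 24.6 times in the 5-day Wnt libraries, against 5.59, 4.59 and 2.57 times in the P26 controls. The ratio was highest in 5-day replicates 5 and 1, and the groups overlapped at both ages. Stromal markers summed to 5307, 2621, 1651, 1759 and 5638 CPM in the 5-day Wnt libraries and to 2081, 2714 and 2090.4 CPM in the P26 controls, so replicates 1 and 5 also had the highest stromal marker levels. At 2 days they summed to 3576, 1010.1, 2258 and 1609.9 CPM in the Wnt libraries and to 1032, 882 and 1247 CPM in the P23 controls, again with replicates 1 and 3 highest. Adipocyte markers were low in 5-day replicates 1 and 5, at 19741 and 9147 CPM, against 38094 to 50462 CPM in the other three. None of the 12 stromal markers was at 0 in all libraries of a group, and the part of stromal RNA in the fibrillar values was not tested.

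**Figure D4:**
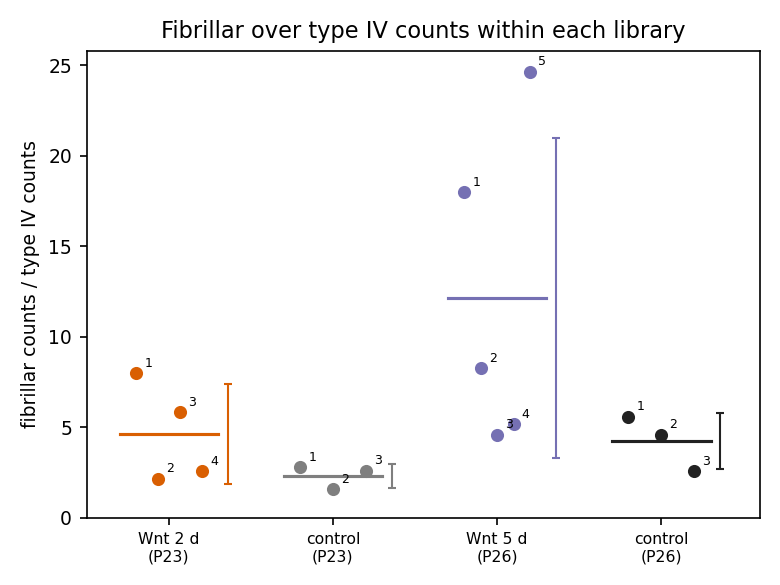
Fibrillar collagen counts divided by type IV collagen counts (y axis from 0) in each library (points, numbered by replicate), with group means (lines) and SDs (bars). The 5-day Wnt libraries run from 4.60 to 24.6 and the P26 controls from 2.57 to 5.59.

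The control groups differ in age by 3 days. Of the 35 tested, 23 were above 0 in P26 over P23 controls and 12 below, with a median log2 fold change of 0.35, against a median of -0.01 and 48.4% above 0 over all genes. All 12 stromal (median 1.27), 11 keratinocyte (3.53) and 10 leukocyte markers tested (2.15) were also above 0. Of 10 adipocyte markers 9 were below 0 (median -0.64), as were 9 of 10 endothelial and mural ones. The part of these cells in the age difference was not tested. Groups did not overlap for 3 collagens higher at P26 (Col9a3, Col12a1 and Col4a5), against 6.51% of all genes, and 1 lower (Col20a1), against 5.67%. Col12a1 ran from 26.4 to 36.2 CPM in P26 controls and from 11.3 to 17.7 CPM in P23 controls, with a log2 fold change of 1.12 ± 0.51 and an adjusted p of 0.699.

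**Figure D5:**
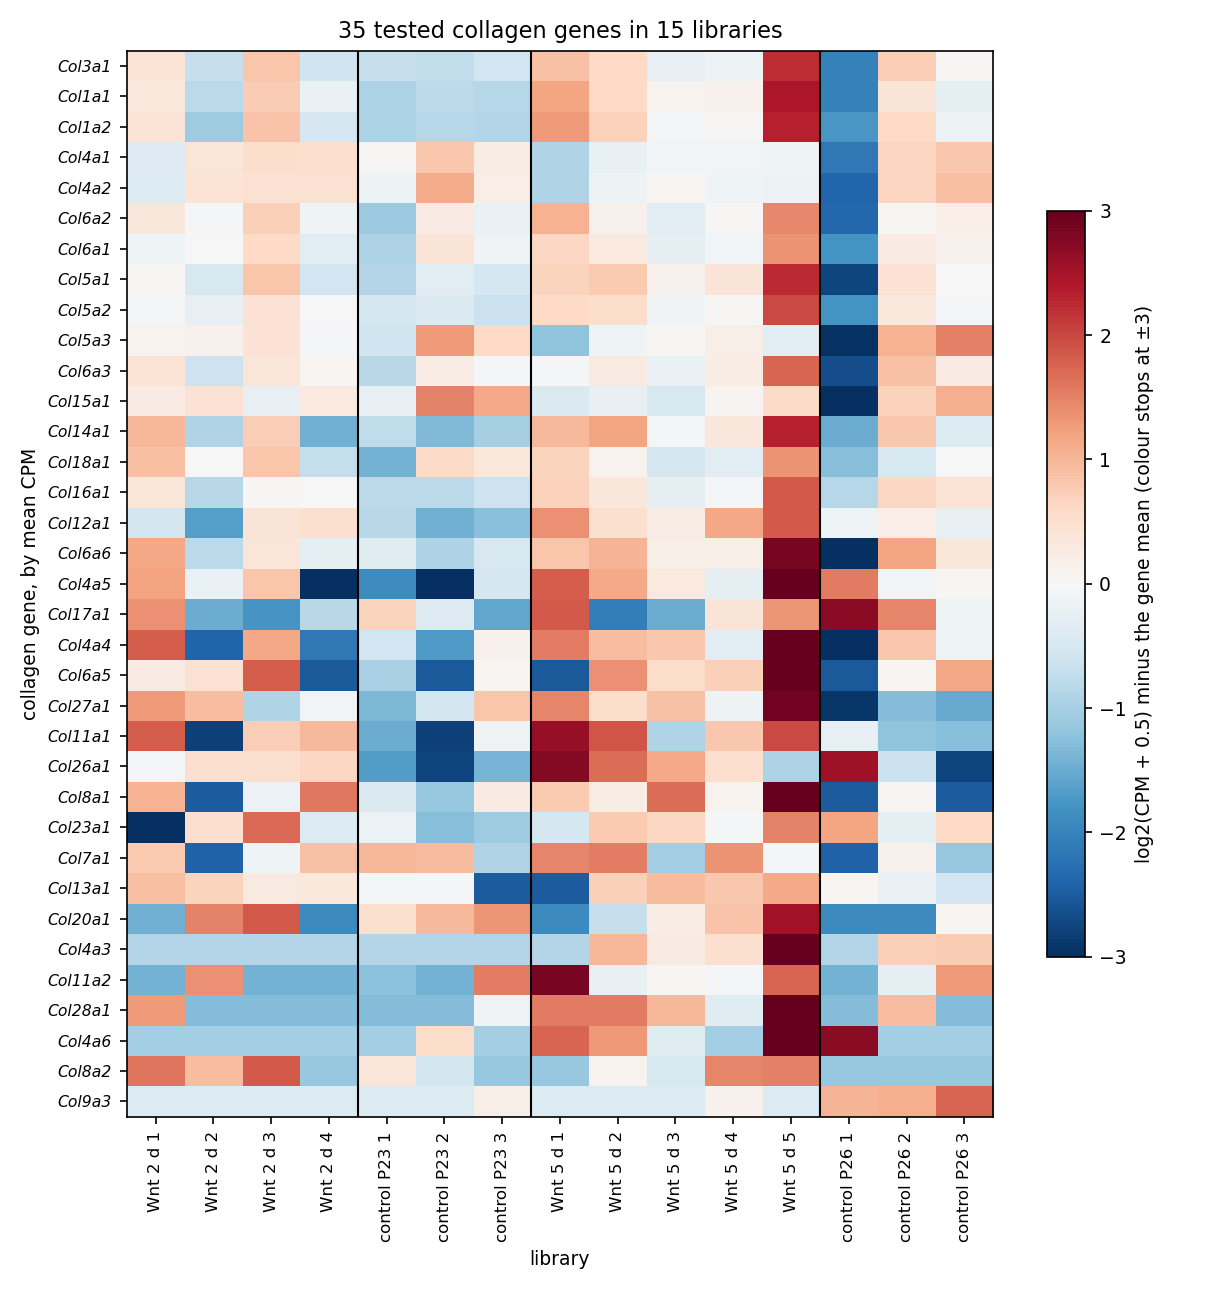
Log2(CPM + 0.5) minus the gene's mean (colour, stopping at ±3) of the 35 tested collagens in the 15 libraries, with genes ordered by mean CPM and groups divided by lines. The 5-day replicate 5 is high and P26 control replicate 1 low for most of the abundant genes.

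Collagen chains are hydroxylated and folded in the endoplasmic reticulum, trimmed of their propeptides outside the cell, cross-linked by lysyl oxidases and bound by receptors. Of 47 genes with these roles, 46 were tested, and 0 passed an adjusted p of 0.05 in edgeR at 2 days or 5 days. DESeq2 called Pcolce and Fkbp10 higher at 5 days, with adjusted p of 0.00337 and 0.0477, where 1.18% of all genes passed, and 0 at 2 days. limma-voom called 0 at both times. At 2 days 38 were above 0 and 8 below (median log2 fold change 0.61), against 49.4% above 0 over all genes, with 6 at an unadjusted p under 0.05, all higher, against 5.17% of all genes. At 5 days 43 were above 0 and 3 below (median 0.89), against 51.6% above 0 over all genes, with 10 at an unadjusted p under 0.05, all higher, against 4.02% of all genes higher.

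Of these genes, Pcolce and Fkbp10 had the smallest p at 5 days, and they, Bgn and Itga1 were chosen after their values were seen. Pcolce, which enhances removal of the C-propeptide of fibrillar procollagens, stood at 1115, 584, 515, 440.1 and 1105 CPM in the 5-day Wnt libraries and at 42.3, 296 and 238 CPM in the P26 controls. Every Wnt library lay above every control, with a log2 fold change of 1.97 ± 0.54 and an adjusted p of 0.545. Fkbp10, a prolyl isomerase of collagen folding, stood at 311, 84.7, 88.2, 86.6 and 184 CPM in the 5-day Wnt libraries and at 39.1, 69.8 and 46.5 CPM in the P26 controls, with a log2 fold change of 1.54 ± 0.44 and an adjusted p of 0.593. Its groups did not overlap either. Among the 7 fibril-associated genes, of which Dcn and Lum are also stromal markers, all were above 0 at both times, and Bgn, which encodes the proteoglycan biglycan, had a log2 fold change of 1.57 ± 0.58 at 5 days with an adjusted p of 0.695. The 5 lysyl oxidase genes were all above 0 at 5 days (median 0.88), with 0 at an unadjusted p under 0.05. Of the 8 receptor genes, 7 were above 0 at 5 days, led by Itga1, a chain of a collagen-binding integrin, at 1.99 ± 0.76 with an adjusted p of 0.695.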

How the data were processed

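Raw counts per gene were used as the authors deposited them, one column per library, and a table of values above a count minimum, also deposited, served only to count members (17 of its 9395 genes). Tools in the submitters' processing notes are Cufflinks 2.2.1, DESeq2 1.40.1, SAMtools 1.9 and Trimmomatic 0.39, with builds mm10 and GRCm38. For the aligner, the counter and the strand setting, nothing is given in the sources used here. Per the labels' protocols, libraries were made with a Universal Plus mRNA kit. The group names in the deposited sample sheet (another text field) were compared with the titles. Replicates are labelled biological, and animals are not named.

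Genes were kept with edgeR's filterByExpr (16935 of 35373), scaled by TMM and fitted in a 4-group robust quasi-likelihood model on all 15 libraries (edgeR 4.0.16, limma 3.58.1, DESeq2 1.42.0, R 4.3.3). P-values are two-sided, with Benjamini-Hochberg adjustment over all genes tested and a threshold of 0.05. The SE is the log2 fold change over the square root of F. On simulated counts for the 5-day comparison over 16935 genes, 75 of 100 genes changed by 3 log2 units and 1 of 100 changed by 1 were recovered. The changed genes were drawn from those averaging above 10 CPM, and 18 of the 35 tested collagens averaged at least 10 CPM. Recovery of rarer genes was not simulated. Lengths are from GENCODE M21, where all 44 members had the coordinates of the table. Without the strand setting, genes with an antisense partner are uncertain: the largest overlaps were 6.07% of the exon bases of Col9a3 (Tcfl5) and 5.65% of those of Col4a3.

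The members and gene lists were chosen with earlier results of these data known. Named genes were 16 fixed collagens, any called member and the 2 tested members per class with the smallest p at 2 and 5 days, 24 in all. Alternatives were other size factors, other filters, DESeq2, limma-voom, a replicate block, a Y-linked term, each library left out and the sample sheet's grouping.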

Additional observations from a re-analysis of the deposited data

Results flagged for a closer look

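Single libraries that lay far from the others of their group (Dixon's criterion at 95%) were found in 14 of 48 tested sets of values, one set being a named collagen in one Wnt group. Chance alone gives about 1 in 20 sets, and the sets share libraries. In 5-day Wnt replicate 5 the highest values were 36524 CPM of Col1a1, 39636 CPM of Col3a1, 3221 CPM of Col5a1, 2252 CPM of Col5a2 and 1673 CPM of Col6a3. The same library was far above its group for Col4a5 (70.5 CPM), Col6a5 (65.5 CPM), Col27a1 (32.7 CPM), Col4a4 (43.9 CPM) and Col4a3 (24.4 CPM). Its stromal markers summed to 5638 CPM and its adipocyte markers to 9147 CPM, the highest and the lowest of its group.

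In 5-day Wnt replicate 1, Col4a1 (1331 CPM) and Col4a2 (1087 CPM) were far below the rest of the group. In 2-day Wnt replicate 1, the library listed as a control in the sample sheet, Col4a2 was lowest (1521 CPM) and Col17a1 highest (14.3 CPM). The part of these libraries' cell makeup in those values was not tested. The control groups, with 3 libraries each, are too small for this criterion.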

How the results depend on the processing

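No collagen was called at an adjusted p of 0.05 in edgeR under the other size factors, the other filters, the Y-linked term, the sample sheet's grouping, without both libraries in doubt or with any 1 library left out, a range of 0 to 0 in each comparison. DESeq2 called 1 at 2 days, 1 at 5 days, 2 in the average and 1 in the difference, and limma-voom called 1 at 5 days. Correlations of deviations ran from -0.06 to 0.30 for the same replicate number and from -0.20 to 0.18 for different numbers. Same-number values were mostly the higher ones but the ranges overlapped, so whether replicate numbers pair the samples cannot be told. The replicate block called 0 collagens in each comparison. The 5 lower collagens without overlap at 5 days, without P26 control replicate 1, were 1 with it.

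Several single-gene log2 fold changes turned their sign, and the cause was not tested. With the Y-linked term, Col5a3, Col4a1, Col4a2 and Col15a1 were 0.62, 0.31, 0.38 and 0.38 at 2 days, 0.72, 0.17, 0.41 and 1.52 at 5 days, and 0.67, 0.24, 0.39 and 0.95 in the average. Under the sample sheet's grouping, 2-day values were 0.23 (Col4a1), 0.13 (Col4a2), -0.015 (Col6a3), -0.13 (Col18a1), -0.012 (Col14a1), -1.96 (Col17a1), -0.25 (Col27a1) and -0.72 (Col4a4). In limma-voom, 2-day values were 0.074 (Col5a3), 0.078 (Col4a1), 0.105 (Col4a2), -0.91 (Col17a1) and -0.25 (Col4a4), 5-day values -0.038 (Col3a1) and -0.28 (Col6a3), and the average of Col4a6 was 1.69. With the replicate block, Col17a1 was -0.48 at 2 days and Col4a3 -0.070 at 5 days. Without both libraries in doubt, Col4a1 was 0.069 and Col17a1 -1.36 at 2 days, and Col6a3 -0.0072 at 5 days.

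With 1 library left out, 2-day values ran from -0.82 to 0.042 (Col5a3), -0.25 to 0.17 (Col4a1), -0.46 to 0.24 (Col4a2), -0.076 to 0.54 (Col6a1), -0.050 to 0.70 (Col18a1) and -1.36 to 0.88 (Col17a1). At 5 days they ran from -0.0071 to 1.20 (Col6a3), -0.94 to 0.23 (Col15a1), -0.69 to 9.11 (Col4a6, whose upper end is fitted against controls at 0 and is no bound) and -0.28 to 3.43 (Col26a1). For Col1a1 at 5 days the range was 0.92 to 2.10. With 3 to 5 libraries a group, changes of 1 log2 unit were rarely recovered on simulated counts of genes averaging above 10 CPM (1 of 100). Collagens not called are therefore not shown to be unchanged.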
